A study of Mus musculus with 22 samples.

Results

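Immediate early response genes are the genes a cell transcribes first after a stimulus, from factors already present and without new protein synthesis. The 10 measured here were Fos, Fosb, Jun, Junb, Jund, Egr1, Atf3, Ier2, Dusp1 and Nr4a1. They were picked by symbol and were 10 of the 52526 gene symbols in the deposited tables. The tissue was the fourth mammary gland of the left side from 22 female C57BL/6J mice aged 7–8 weeks, all of which had received EO771 mouse mammary cancer cells carrying firefly luciferase in that fat pad. For 2 weeks before engraftment each mouse had either a running wheel on its hub or the hub alone (sedentary control). Liposomes holding PBS or clodronate, which kills phagocytes that take it up, were injected 24 hours before engraftment and again with the cells, and tissue was taken 24 hours after engraftment. PBS liposomes went to 6 sedentary mice and 6 runners, and clodronate liposomes to 5 sedentary mice and 5 runners. The labels place all 22 mice in 1 experiment. No mouse went without engraftment or without liposomes, so the level of these genes in undisturbed gland was not measured.

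Fos and Fosb encode leucine-zipper proteins that pair with a Jun protein (Jun, Junb or Jund) to form the AP-1 transcription factor. Egr1 is a zinc-finger factor, Atf3 a stress-induced relative of the AP-1 proteins, and Nr4a1 an orphan nuclear receptor. Dusp1 is a phosphatase that switches off the MAP kinases which turn these genes on, and Ier2 is a small nuclear protein of less defined function. Transcripts of most of the group are short-lived and appear within minutes of growth factor, stress or handling, whereas Jund is known for a steadier level. Transcription of several starts from CREB bound at cyclic AMP response elements (CRE) and from SRF with its partner ternary complex factors at serum response elements.

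Matches to such elements were spread unevenly over the RefSeq sequences just upstream of the annotated starts. RefSeq windows of 250 bases (GRCm38.p6) were at hand for 8 members: Fos, Fosb, Jun, Junb, Jund, Atf3, Dusp1 and Nr4a1. The 6 printed here belong to the members with the most and the fewest copies of TGACG, the CRE core, and to those whose levels are compared most closely in the text that follows. Each reads 5′ to 3′ on the gene's strand and ends at the base before the start. Capitals mark the core TGACG on either strand, so that CGTCA is also in capitals.
Dusp1 (chr17:26508473-26508722, minus strand): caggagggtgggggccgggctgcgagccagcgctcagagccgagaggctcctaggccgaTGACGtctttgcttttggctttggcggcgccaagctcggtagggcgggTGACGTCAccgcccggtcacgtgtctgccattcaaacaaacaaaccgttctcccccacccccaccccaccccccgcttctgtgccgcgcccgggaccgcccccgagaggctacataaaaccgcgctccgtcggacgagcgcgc
Nr4a1 (chr15:101266596-101266845, plus strand): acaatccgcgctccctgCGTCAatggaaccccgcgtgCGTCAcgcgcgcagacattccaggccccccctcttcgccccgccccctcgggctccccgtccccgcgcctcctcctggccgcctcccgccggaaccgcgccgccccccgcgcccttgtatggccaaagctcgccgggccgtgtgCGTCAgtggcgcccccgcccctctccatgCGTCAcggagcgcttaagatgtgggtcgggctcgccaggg
Fos (chr12:85473640-85473889, plus strand): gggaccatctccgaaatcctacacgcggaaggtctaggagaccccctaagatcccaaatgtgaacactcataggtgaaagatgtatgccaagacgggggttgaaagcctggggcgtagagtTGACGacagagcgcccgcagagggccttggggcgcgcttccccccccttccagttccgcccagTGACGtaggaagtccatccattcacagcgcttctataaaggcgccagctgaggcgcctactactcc
Fosb (chr7:19310046-19310295, minus strand): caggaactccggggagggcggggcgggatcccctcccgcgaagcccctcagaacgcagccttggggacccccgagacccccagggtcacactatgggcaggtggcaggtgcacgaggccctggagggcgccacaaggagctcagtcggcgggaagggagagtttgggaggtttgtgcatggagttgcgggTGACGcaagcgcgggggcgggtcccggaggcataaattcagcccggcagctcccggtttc
Junb (chr8:84978749-84978998, minus strand): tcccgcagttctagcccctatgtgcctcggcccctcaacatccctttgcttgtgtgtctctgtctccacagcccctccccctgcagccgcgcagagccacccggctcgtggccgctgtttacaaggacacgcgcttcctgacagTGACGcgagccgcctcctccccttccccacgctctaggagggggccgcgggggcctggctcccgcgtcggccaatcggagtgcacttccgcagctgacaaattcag
Jun (chr4:95052223-95052472, minus strand): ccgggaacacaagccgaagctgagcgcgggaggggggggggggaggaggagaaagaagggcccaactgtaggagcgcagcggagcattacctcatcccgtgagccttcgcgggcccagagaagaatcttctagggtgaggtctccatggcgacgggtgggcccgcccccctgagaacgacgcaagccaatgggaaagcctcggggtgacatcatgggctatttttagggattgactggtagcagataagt
The core TGACG was found in 6 of the 8 windows, against 17.8% of all 32851 RefSeq windows of this length. Nr4a1 had 4 matches, Dusp1 had 3, Fos had 2, Fosb, Junb and Atf3 had 1 each, and Jun and Jund had 0. The Jund window (chr8:70697489-70697738, plus strand) ended upstream of the GENCODE start of Jund (70698949) without reaching it. Its 0 matches therefore do not describe the sequence next to that start. The windows of Dusp1, Atf3 and Nr4a1 lay inside the GENCODE spans, downstream of the outermost GENCODE starts (26562128, 191218039 and 101254269). Their matches are placed relative to the RefSeq starts and do not describe the sequence next to those GENCODE starts. The full CRE, TGACGTCA, which holds the core on both strands, was in 1 of the 8 windows, that of Dusp1, where it began at position −143 with −1 the base before the start (1.55% of all windows). The EGR motif GCGNGGGCG was in 2 of the 8, Fosb and Nr4a1 (4.70% of all), and TATAAA was in 1, Fos, at position −33 (12.4% of all). The AP-1 site TGANTCA and the CArG box, the core of the serum response element, were in 0 of the 8 windows, against 6.75% and 1.47% of all windows. All motifs were searched on both strands, and a match describes the letters only. Sites farther upstream or with a changed letter were not searched, so 0 matches do not show that an element is absent.

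In the GENCODE M21 annotation of GRCm38, Fos spans chr12:85473890-85477273 on the plus strand, Fosb chr7:19302696-19310051 and Jun chr4:95049034-95052222, both on the minus strand. Chromosome 8 holds Junb (chr8:84974484-84978718, minus), Jund (chr8:70698949-70700616, plus) and Ier2 (chr8:84661331-84662852, minus). Atf3 spans chr1:191170296-191218039 and Dusp1 chr17:26505590-26562128, both minus, and Nr4a1 chr15:101254269-101274795, plus. Jun, Junb, Jund, Atf3 and Dusp1 each overlap an annotated gene on the other strand (Prdx2 in the case of Junb), and since the strand used in counting is not given, reads in the overlaps cannot be told apart. Dusp1 also overlaps AC122252.4 and AC122252.1 on its own strand, where the strand of a read would not separate them. The last 400 bases of the members matched no other gene at 97% identity or more.

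Levels were in CPM, read counts scaled to the total of the library, from libraries that read 1 end of each transcript near its poly(A) tail, so a value did not grow with transcript length. The tables listed no value under 1 CPM, and a gene at that floor had at most 13 to 20 reads. Libraries held 13256467 to 20484578 reads as worked out from the steps between values. Tests used log2(CPM + 1), which shrinks differences of genes near the floor. Adipocyte markers were abundant in all libraries (summed level 15108 to 36709 CPM), and epithelial markers summed to 417 to 4410 CPM. Skeletal muscle markers ranged from 37.7 to 28071 CPM between mice, and their score (the mean log2(CPM + 1) of the list) exceeded the adipocyte score in clodronate control 2 (10.8 against 9.17) and clodronate wheel 2 (9.80 against 9.71). Lymphocyte markers summed to 230 to 687 CPM in 5 mice (PBS control 2, PBS wheel 3 and clodronate wheel 3, 4 and 5) and to 12.7 to 19.96 CPM in the other 17. Macrophage markers, of the phagocytes clodronate is used against, summed to 254 to 643 CPM with PBS and 252 to 700 CPM with clodronate. In bulk tissue, fewer cells of a type and less RNA per cell cannot be told apart, and reads of the host and of the engrafted mouse cells cannot be told apart either.

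Fos, the founding AP-1 partner, was at moderate level in every mouse, with a median of 9.98 CPM over the 22 mice. It ranged from 6.20 to 10.4 CPM (median 8.40) in the PBS controls and from 8.28 to 22.7 CPM (median 15.3) in the PBS wheel-runners. The clodronate controls had 7.18, 14.3, 12.8, 12.1 and 10.1 CPM, and the clodronate wheel-runners 14.1, 6.27, 9.84, 9.41 and 5.86 CPM. All groups overlapped, and the PBS wheel group held the 3 highest mice of the series, at 16.8, 21.2 and 22.7 CPM. Fosb, its close relative, was near the limit of the tables, at the floor in 9 of 22 mice and with a median of 1.70 CPM. Its 2 highest values stood well above the rest: PBS wheel 5 had 14.4 CPM and clodronate wheel 2 had 11.6 CPM, while the highest of the other 20 had 6.56 CPM. Only 1 PBS wheel mouse was at the floor, against 4 of the 6 PBS controls.

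The 3 Jun genes were the most abundant of the group together with Egr1 and Dusp1. Jun ran from 29.2 to 56.6 CPM (median 44.9) in the PBS controls and from 24.4 to 70.0 CPM (median 43.9) in the PBS wheel-runners. In the clodronate controls it was 31.5, 71.6, 56.0, 37.6 and 54.7 CPM, and in the clodronate wheel-runners 30.9, 36.3, 42.6, 23.1 and 30.7 CPM. In the clodronate wheel-runners 4 of 5 mice lay below the 22-mouse median of 41.1 CPM, and no mouse was above the clodronate control median. Junb, which can dampen Jun's activity, had group medians of 33.7 to 39.6 CPM, and its lowest mouse, PBS wheel 3 (14.8 CPM), and highest, clodronate control 3 (61.0 CPM), differed 4.12-fold. Jund was the steadiest member: all 22 mice fell between 33.2 and 57.8 CPM, a 1.74-fold range, and the 5 clodronate wheel-runners lay between 46.5 and 52.8 CPM.

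Egr1 had the widest range among the abundant members, 9.19-fold between its lowest and highest mouse. Both extremes were PBS wheel-runners, mouse 3 at 8.11 CPM and mouse 5 at 74.5 CPM, and a PBS control, mouse 4, had 61.6 CPM. Its clodronate controls split into 48.1 and 48.1 CPM in mice 2 and 3 against 15.5, 10.5 and 18.0 CPM in the rest. Dusp1 was highest in the same 2 mice of that group, at 56.0 and 67.6 CPM, and lower at 8.54, 19.8 and 38.9 CPM in mice 1, 4 and 5, with mouse 1 the lowest of the series. The clodronate wheel-runners had 32.9, 60.7, 22.1, 10.9 and 16.7 CPM of Dusp1. Ier2 had a median of 10.7 CPM and ranged from 4.64 CPM in clodronate control 1 to 24.2 CPM in PBS wheel 5. Atf3 was low in all groups (median 3.64 CPM, 2 mice at the floor), with 1 mouse, PBS wheel 4, at 10.5 CPM. Nr4a1 was lower still (median 2.56 CPM, 2 mice at the floor), yet reached 15.5 CPM in clodronate wheel 2, 15.0 CPM in clodronate control 2 and 12.2 CPM in PBS wheel 5.

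**Figure D1:**
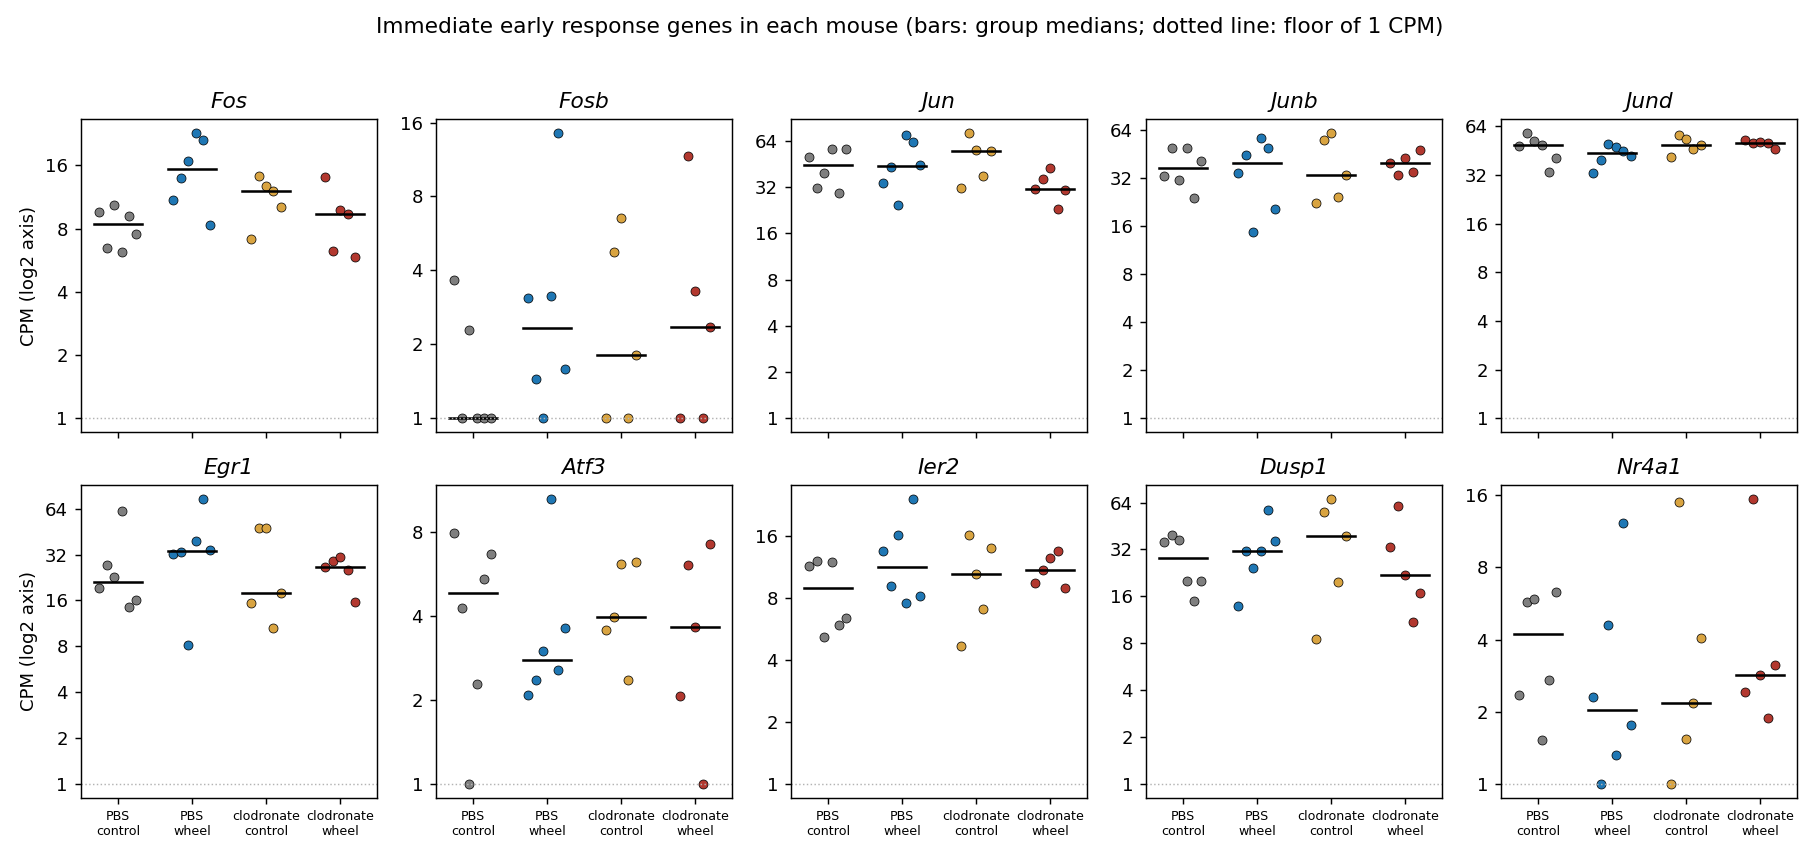
Level of each member in each mouse, 1 panel a gene, with CPM on a log2 axis, 1 point a mouse, a bar at each group's median and a dotted line at the floor of 1 CPM. Fos reaches 22.7 CPM only in PBS wheel-runners, Jund stays within a 1.74-fold range, and Fosb and Nr4a1 have single mice far above the rest of their group.

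The members therefore differed widely in how much they varied between mice of the same group. The standard deviation of log2(CPM + 1) within groups was 0.97 for Nr4a1, 0.91 for Fosb, 0.83 for Dusp1 and 0.81 for Egr1, which placed each of these above 90.6% to 94.3% of the 15138 genes tested. It was 0.73 for Atf3, 0.55 for Junb, 0.53 for Ier2, 0.45 for Jun, 0.42 for Fos and 0.20 for Jund, the last above only 3.71% of genes. The median was 0.64 over the 10 members, 0.53 over 54 other early response genes and 0.46 over all genes tested.

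Running was compared with the sedentary condition first under PBS liposomes. Fos had the largest difference of the group, with 15.6 ± 5.69 CPM (SD, n = 6) in wheel-runners and 8.24 ± 1.74 CPM (SD, n = 6) in controls. On the log2(CPM + 1) scale this was 0.79 higher (SE 0.26, 95% interval 0.26 to 1.33), and 5 of 6 wheel-runners lay above the control median. By an exact two-sided permutation test Fos had p = 0.0130, unadjusted, where 6 against 6 mice allow no p under 0.00216. Across genes it did not pass, with a limma adjusted p of 0.987. Fosb (0.63 higher, SE 0.48), Ier2 (0.49, SE 0.31) and Egr1 (0.38, SE 0.42) had smaller differences in the same direction, with exact permutation p-values of 0.229, 0.162 and 0.463. Each leaned on PBS wheel 5, without which they were 0.23, 0.30 and 0.14, and Egr1 was 0.75 without PBS wheel 3, 0.65 without PBS control 4 and 0.25 without PBS control 5. The other members lay close to 0, from 0.18 for Dusp1 through 0.04 for Jun, −0.12 for Jund, −0.15 for Junb and −0.16 for Atf3 to −0.29 for Nr4a1.

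By limma, 0 of the 10 members passed an adjusted p of 0.05 in this comparison, as did 0.0% of the 15138 genes tested. At an unadjusted p under 0.05, 1 member was called by limma, Fos, against 4.91% of all genes (0.799% with the higher mean in wheel-runners), and the same 1 by the exact permutation test, against 5.09% of all genes. In no member were the PBS groups free of overlap (0.264% of all genes). The mean was higher in wheel-runners for 6 members and lower for 4, with a median difference of 0.11, while the median over all genes was −0.08 and 63.8% of genes had the lower mean in wheel-runners. With upper-quartile scaling that share was 53.0% and the median of all genes −0.02. Fos kept an exact permutation p of 0.00216 to 0.0260 when any 1 mouse was left out. Without the 5 lymphocyte-rich mice its difference was 0.70 (exact permutation p = 0.0476), and that of Egr1 was 0.78 (exact permutation p = 0.111).

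Under clodronate liposomes the member that differed most was Jun, and in the other direction. Jun averaged 32.7 ± 7.25 CPM (SD, n = 5) in wheel-runners and 50.3 ± 16.0 CPM (SD, n = 5) in controls. The log2 difference was −0.57 (SE 0.27, 95% interval −1.13 to −0.02), with an exact permutation p of 0.0556, where 5 against 5 mice allow 0.00794 at least, and a limma adjusted p of 0.448. With any 1 mouse left out the exact permutation p for Jun ranged from 0.0317, without clodronate control 1, to 0.119. Fos, 9.10 ± 3.33 CPM against 11.3 ± 2.75 CPM (SD, n = 5 each), had a difference of −0.31 (SE 0.28, exact permutation p = 0.246). Dusp1 (−0.32) and Atf3 (−0.25) were also below 0, and Jund (0.04), Egr1 (0.09), Fosb (0.11), Junb (0.11), Ier2 (0.17) and Nr4a1 (0.20) above it. By limma 0 of 10 members passed the adjusted p, against 0.00661% of all genes, and 1 (Jun) had an unadjusted p under 0.05, against 10.4% of all genes (7.04% with the higher mean in wheel-runners). The mean was higher in wheel-runners for 6 members and lower for 4, and it was lower for 49.3% of all genes. The exact permutation test called 0 members, against 6.55% of all genes, and in 0 members the groups did not overlap (1.27% of all genes). The 3 lymphocyte-rich mice of this comparison were all wheel-runners. Without them, Jun had −0.51 (exact permutation p = 0.190), Fos −0.20 and Dusp1 0.54, the last on the other side of 0.

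The wheel effect on Fos was then compared between the liposomes, since it was above 0 with PBS and below 0 with clodronate. The difference of the wheel effects (clodronate minus PBS) was −1.10 on the log2 scale (SE 0.39, 95% interval −1.90 to −0.31), with a permutation p of 0.00721 (two-sided, unadjusted, 100000 draws) and a limma adjusted p of 0.613. The permutations exchanged wheel-runners and controls within each liposome, so that p refers to no wheel effect under either liposome, not to equal effects. The same Fos values prompted the comparison, so the p is no separate evidence. Without the 5 lymphocyte-rich mice the Fos difference was −0.90 (limma adjusted p = 1.00), and 0 members had an unadjusted limma p under 0.05. Jun followed with −0.62 (SE 0.36, permutation p = 0.129). By limma 0 members passed the adjusted p (0.0% of all genes), and 1 member, Fos, had an unadjusted p under 0.05, against 7.58% of all genes (6.35% above 0). Of the 10 members 3 were above 0 and 7 below, with a median of −0.31, and over all genes 40.8% were below 0, with a median of 0.09.

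**Figure D2:**
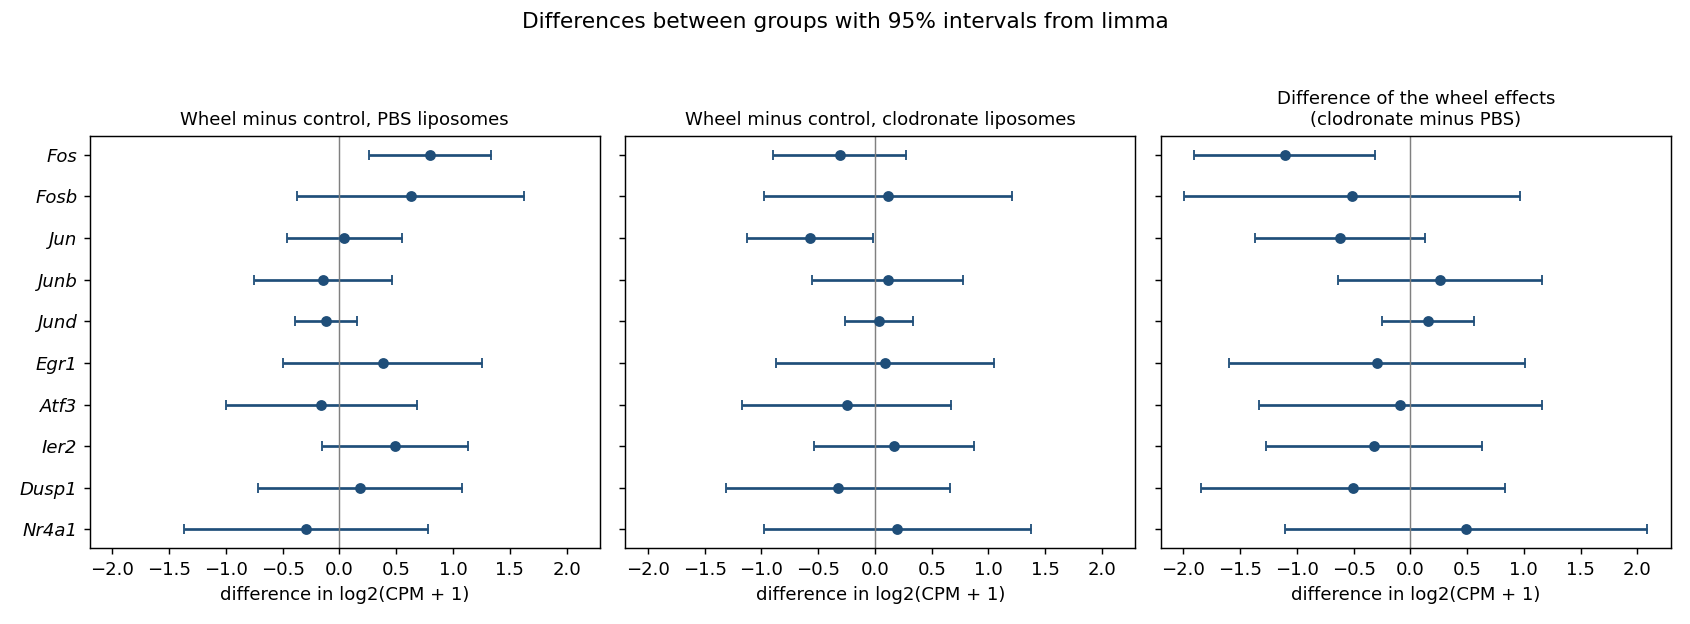
Difference in log2(CPM + 1) for each member with its 95% interval from limma, in panels for the wheel effect with PBS, the wheel effect with clodronate, and the difference of these effects. The Fos interval lies above 0 with PBS (0.26 to 1.33) and below 0 for the difference (−1.90 to −0.31), and the Jun interval lies below 0 with clodronate.

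Clodronate was compared with PBS within each activity. In wheel-runners Fos was 0.70 lower on the log2 scale with clodronate (SE 0.27, limma adjusted p = 0.315), and 0 of 5 clodronate mice lay above the PBS median of 15.3 CPM (exact permutation p = 0.0519). In controls the Fos difference was 0.40 in the other direction (SE 0.27, limma adjusted p = 0.808, exact permutation p = 0.0693). With 1 mouse left out, Fos in controls reached an exact permutation p of 0.0190 without clodronate control 1 and 0.0476 without PBS control 3. In wheel-runners Fos reached 0.0238 without PBS wheel 6 and 0.0333 without clodronate wheel 1 by the exact permutation test. Without PBS wheel 3, the clodronate minus PBS difference in wheel-runners was −0.68 for Egr1 and −0.60 for Jun (exact permutation p = 0.00794 and 0.0397), against −0.31 and −0.44 with all mice (0.541 and 0.156). These comparisons share their groups with the wheel comparisons, so they give the same Fos values a second reading and no separate evidence. Jund had the only other exact permutation p under 0.05, in wheel-runners, with 50.4 ± 2.32 CPM (SD, n = 5) under clodronate and 42.9 ± 6.04 CPM (SD, n = 6) under PBS. The log2 difference was 0.24 (SE 0.14, limma adjusted p = 0.535, exact permutation p = 0.0281, unadjusted), and 5 of 5 clodronate mice lay above the PBS median. With muscle, fat and lymphocyte scores as covariates, an alternative chosen after seeing the data, the Jund difference was 0.04. With any 1 mouse left out the p for Jund ranged from 0.0159 to 0.0667 by the exact permutation test, with the values over 0.05 reached without clodronate wheel 1, 2, 3 or 4. Without the lymphocyte-rich mice, which left 5 and 2 mice, the Jund difference was 0.32 (exact permutation p = 0.143) and the Fos difference −0.55 (exact permutation p = 0.429).

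By limma 0 of 10 members passed the adjusted p in control mice (0.0% of all genes), in wheel-runners (0.00661%) or averaged over both activities (0.205%). At an unadjusted p under 0.05, limma called 0 members in controls, 1 (Fos) in wheel-runners and 0 on average, against 6.99%, 11.6% and 10.4% of all genes. Genes with both an unadjusted limma p under 0.05 and the higher mean under clodronate were 0.905%, 6.08% and 2.13% of all genes tested. The exact permutation test called 0 members in controls (7.44% of all genes) and 1 in wheel-runners (8.88%), and in 0 members the liposome groups did not overlap (0.634% and 1.26% of all genes). Averaged over activity, the members lay between −0.17 for Egr1 and 0.21 for Fosb, with 6 above 0 and 4 below, while 57.4% of all genes were below 0. Of 40 exact permutation tests over members and comparisons, 2 gave p under 0.05, Fos and Jund, against 6.99% of all tests of all genes in these 4 comparisons. In wheel-runners 3 members were above 0 and 7 below (49.9% of all genes below). The direction of small differences depended on scaling in controls, where 7 members were above 0 in the deposited CPM (65.4% of all genes below 0) and 9 with upper-quartile scaling.

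Single mice of the same group could lie at opposite ends for most members. Clodronate control 2 lay above the 22-mouse median in 10 of 10 members, and clodronate control 1, of the same group, in 0. Clodronate control 4 was above the median in 1 member, PBS control 5 and clodronate wheel 4 in 2, and PBS wheel 5, clodronate controls 3 and 5 and clodronate wheel 3 in 8. PBS wheel 5 was also the highest of all mice in 3 members, Fosb, Egr1 and Ier2. Not every gene followed its mouse. PBS wheel 3 had 16.8 CPM of Fos, the third highest value of the series, beside the lowest Junb (14.8 CPM) and the lowest Egr1 (8.11 CPM).

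**Figure D3:**
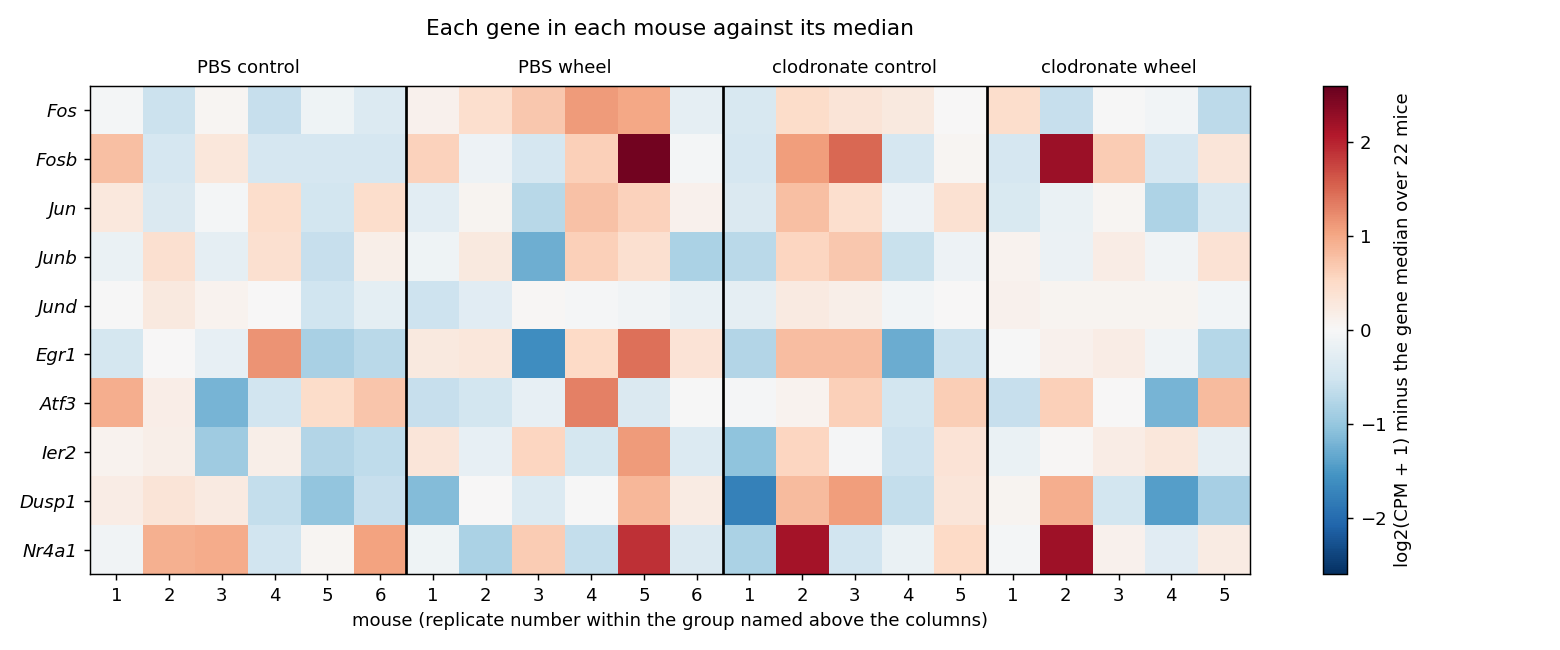
Each member in each mouse as log2(CPM + 1) minus that gene's median over the 22 mice, with mice in columns by group, members as bands, and colour from below to above the median. Clodronate control 2 is above the median in 10 of 10 members and clodronate control 1 in 0 of 10.

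Each pair of members was correlated over the 22 mice after the group means were subtracted, giving 45 pairs, with permutations of mice within groups and p-values adjusted over the 45. Of these, 41 were positive, and the median Pearson r was 0.32, with a range of −0.07 to 0.76. Over all 114571953 pairs of tested genes, 51.2% were positive with a median of 0.01, and 1.17% reached an r of 0.639, the smallest among the 5 member pairs that passed, against 11.1% of member pairs. That limit was taken from the member pairs themselves, so these last shares are a description and no test. The points share their libraries and whatever differs between pieces of tissue. Mice at the floor of a gene have tied values, and what this does to r was not tested.

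Junb and Egr1 had the strongest relation, with r = 0.76 (permutation p = 0.00079, adjusted 0.0178) and Spearman's rho = 0.70 (permutation p = 0.00153, adjusted 0.0296). Without the 2 mice farthest from the median of Junb r was 0.74. Within groups it was 0.70, 0.79 and 0.96 in PBS controls, PBS wheel-runners and clodronate controls, but −0.64 in the 5 clodronate wheel-runners. Jun was related to both, with r = 0.72 for Junb (permutation p = 0.00197, adjusted 0.0229; rho 0.70, p = 0.00263, adjusted 0.0296) and r = 0.69 for Egr1 (permutation p = 0.00254, adjusted 0.0229; rho 0.69, p = 0.00115, adjusted 0.0296). Leaving out the 2 mice farthest from the median of Jun gave 0.70 and 0.68. These did not include PBS wheel 3, the lowest mouse in Junb and Egr1. With PBS wheel 3 alone left out, 1 of the 45 pairs of members passed the adjusted p. The median r over the 45 was then 0.40 and the highest 0.69. For Jun and Junb the values within groups were 0.43, 0.82, 0.89 and 0.25, and for Jun and Egr1 0.36, 0.85, 0.80 and 0.39, in the same order of groups.

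Dusp1, the phosphatase, went with Fosb and with Jund. For Fosb and Dusp1 r was 0.68 (permutation p = 0.00211, adjusted 0.0229; rho 0.63, p = 0.00542, adjusted 0.0406), 0.56 without the 2 farthest mice, and 0.59, 0.52, 0.88 and 0.73 within the groups. For Jund and Dusp1 r was 0.64 (permutation p = 0.00045, adjusted 0.0178; rho 0.63, p = 0.00252, adjusted 0.0296), 0.57 without the 2 farthest mice, and 0.86, 0.57, 0.95 and 0.36 within the groups. These 5 pairs passed by both measures, and Fosb with Jun passed by rho alone (rho 0.62, adjusted permutation p = 0.0381; r 0.58, adjusted 0.0712).

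Fos, the member with the largest group differences, was among the least tied to the rest. Its median r with the other 9 was 0.20, against 0.49 for Dusp1, 0.45 for Fosb, 0.39 for Egr1, Ier2 and Jun, 0.32 for Junb and Jund, 0.26 for Nr4a1 and 0.06 for Atf3. With Egr1, a classical companion in the serum response, Fos had r = 0.13 (permutation p = 0.616) and rho = 0.21 (permutation p = 0.378).

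**Figure D4:**
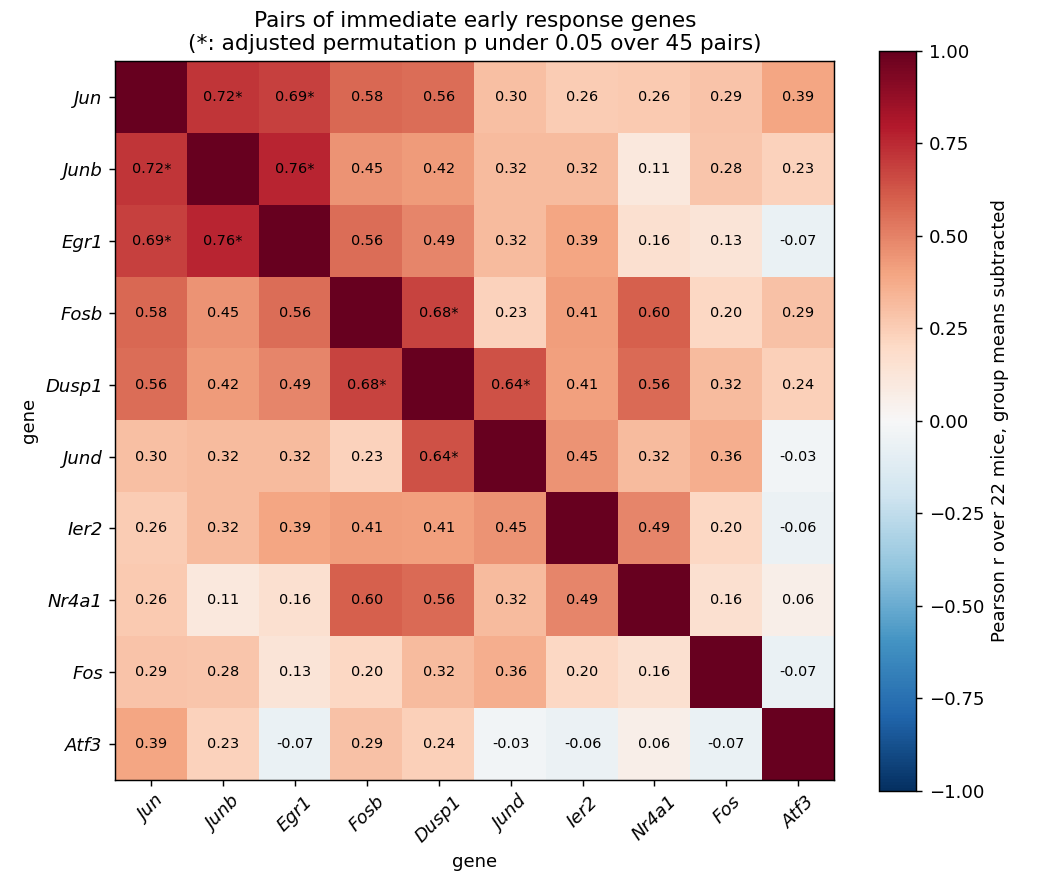
Pearson r of each pair of members over 22 mice after subtraction of group means, on a colour scale, with a star where the permutation p adjusted over 45 pairs was under 0.05. Junb with Egr1 is highest at 0.76, and Atf3 has no pair past the threshold.

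**Figure D5:**
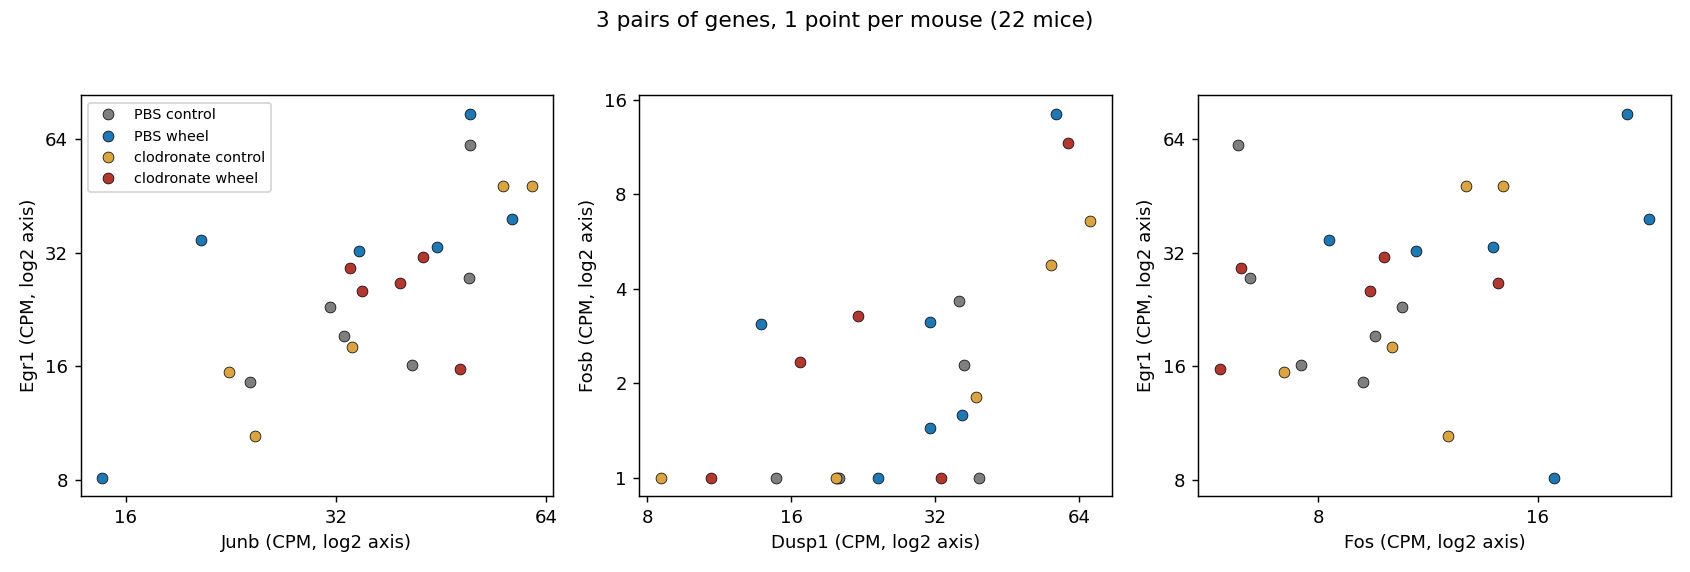
CPM of both genes in each of 22 mice on log2 axes, with 1 colour a group, for Junb and Egr1, Dusp1 and Fosb, and Fos and Egr1. Junb and Egr1 run along a line (r = 0.76 after subtraction of group means), many mice lie on the Fosb floor of 1 CPM, and Fos and Egr1 scatter (r = 0.13).

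Each member was also correlated with 14 measures of tissue makeup and library quality in the same way, and p-values were adjusted over the 140 tests. All 10 members had a positive r with the skeletal muscle score (median 0.29), against 42.3% of all genes tested. All 10 were also positive with the neutrophil score (median 0.44, 54.0% of all genes), the score of dividing cells (median 0.35, 54.5%) and the score of glucocorticoid-induced genes (median 0.43, 45.7%). All 10 had a negative r with the adipocyte score (median −0.42, 51.9% of all genes negative), the endothelial score (median −0.47, 49.6%), the blood score (median −0.25, 53.2%) and the mitochondrial score (median −0.35, 54.0%). For the epithelial score 9 of 10 were positive (median 0.31, 42.9% of all genes), for the macrophage score 2 (median −0.24, 60.8%) and for the fibroblast score 1 (median −0.30, 54.1%). Members varied together in the same mice, so these counts, and those of the library measures below, are not separate observations.

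Library measures ran alongside. All 10 members had a negative r with the share of assigned reads taken by the 10 most abundant genes (median −0.35, lowest −0.56 for Jund and −0.55 for Jun, 59.5% of all genes negative). With the total reads of the library 1 of 10 was positive (median −0.34, 53.6% of all genes), and with the share of reads assigned to genes 1 of 10 (median −0.16, 52.4%). Neutrophil markers were close to the floor throughout, with 2 to 4 of 8 at the floor in every mouse of a group, Ly6g among them in each group. Of the 9 genes in the mitochondrial score, which joins rRNA and mRNA, 3 were at the floor in every mouse (mt-Co2, mt-Co3 and mt-Atp6).

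Single relations that passed, 4 in all, did so by Pearson's r, and 0 passed by rho. Of all genes tested, 1.72% had an r with muscle at or above that of Nr4a1, 2.42% with epithelium at or above that of Egr1, 0.238% with the glucocorticoid score at or above that of Dusp1, and 0.344% with endothelium at or below that of Jund. Nr4a1 went with skeletal muscle (r = 0.72, permutation p = 0.0006, adjusted 0.0280; rho 0.61, p = 0.00616, adjusted 0.0784; 0.51 without the 2 farthest mice). Its 2 highest mice, clodronate control 2 and clodronate wheel 2, also had the 2 highest muscle scores, 10.8 and 9.80, but PBS wheel 5, the third in Nr4a1, had 4.64. Egr1 went with epithelium (r = 0.73, permutation p = 0.00035, adjusted 0.0245; rho 0.61, p = 0.00319, adjusted 0.0784; 0.56 without 2 mice). Dusp1, itself a glucocorticoid-induced gene, went with the other genes of that response (r = 0.76, permutation p = 0.00083, adjusted 0.0290; rho 0.70, p = 0.00242, adjusted 0.0784; 0.71 without 2 mice). Jund had a negative relation with endothelium (r = −0.71, permutation p = 0.00033, adjusted 0.0245; rho −0.72, p = 0.00092, adjusted 0.0784; −0.65 without 2 mice). The part of these tissue differences in the shared variation of the members was not tested.

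The wider early response was read from lists of 54 other early response genes, 21 upstream kinases and factors and 16 partners and inhibitors. By limma 0 genes of any list passed the adjusted p in any of the 6 comparisons, with a lowest adjusted p of 0.0885. At an unadjusted limma p under 0.05, 3 of the 54, 0 of the 21 and 0 of the 16 were called for running with PBS (4.91% of all genes), and 7, 3 and 2 with clodronate (10.4%). Of 56 early response genes listed, Egr4 and Il6 were at the floor in every mouse. With PBS, 24 of 54 early response genes had the higher mean in wheel-runners and 30 the lower, 10 and 11 of the 21 upstream genes, and 8 and 8 of the 16 partners. The largest differences were those of Nr4a2, a relative of Nr4a1 (−0.74, SE 0.31), Fosl1, a Fos relative (−0.58), Tnfaip3, an inhibitor of NF-κB (0.80), and Sik1, a kinase of the CREB pathway (0.68), with limma adjusted p-values of 0.987 or more. Tnfaip3 was at the floor in 3 of 6 PBS controls and 0 of 6 PBS wheel-runners, and Fosl1 in 1 and 2 mice of these groups.

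With clodronate, 31 of the 54 were higher and 23 lower in wheel-runners, 14 and 7 of the upstream genes, and 6 and 10 of the partners. Nr4a2 was again lowest, at 6.00, 5.79, 6.35, 8.47 and 2.72 CPM in controls and 1, 1.86, 3.04, 2.92 and 3.09 CPM in wheel-runners (−1.01, SE 0.34, limma adjusted p = 0.272). Only clodronate control 5 reached into the range of the wheel-runners. Maff, a small leucine-zipper factor, had −0.80 (limma adjusted p = 0.406). Dusp2, a phosphatase known from lymphocytes, had 2.46 (SE 0.87, limma adjusted p = 0.281), from 43.4, 43.4 and 40.8 CPM in the 3 lymphocyte-rich wheel-runners and the floor of 1 CPM in the other 2, while the controls had at most 2.94 CPM. Klf2, a factor of resting lymphocytes and endothelium, had 1.16 (SE 0.33, limma adjusted p = 0.238), with 133, 153 and 118 CPM in those same 3 mice and 49.0 and 64.6 CPM in the rest of the wheel-runners, against 27.4 to 65.7 CPM in the controls. Lymphocyte markers and these 2 genes were thus high in the same mice.

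The mean of the 10 members (each scaled to unit spread after subtraction of group means) was set against every other tested gene over the 22 mice, as a description. Among the genes with the highest r were Hdgf (0.92), Csnk2b (0.91), Slc38a2 (0.91), Il1rn (0.88), Kctd5 (0.88), Lgals3 (0.88), Ybx3 (0.87), Tubb2a (0.87) and Nt5c3 (0.87). Slc38a2 is an amino acid transporter, Il1rn the antagonist of the interleukin-1 receptor, and Lgals3 a galectin of macrophages and epithelia. Among the listed early response genes the closest were Cebpb (0.83), Dusp5 (0.81), Sik1 (0.75), Plk3 (0.71), Cyr61 (0.65) and Ptgs2 (0.65). Ptgs2 was at the floor in 6 of 6 PBS controls, 4 of 6 PBS wheel-runners and 3 of 5 mice of each clodronate group. Dusp5 and Cyr61 also had mice at the floor. Of the 54 listed, 42 had a positive r, with a median of 0.30, and 29.6% had an r over 0.5, against 46.1% and 8.90% of all tested genes. The upstream genes had a median r of 0.05 (12 of 21 positive) and the partners 0.11 (11 of 16 positive).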

How the data were processed

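RNA from 22 mice was measured with Lexogen QuantSeq 3′ FWD. Per the submitters' processing notes, reads were aligned with STAR 2.5.3a to GRCm38. The counting step and its use of strand are not given in the sources used here, so reads shared by Jun, Junb, Jund, Atf3 or Dusp1 and the annotated genes that overlap them (GENCODE M21) cannot be told apart. The authors deposited 1 table per mouse, whose values behave as a signal in CPM with a floor of 1. All values above the floor and up to 1000 CPM were whole multiples (tolerance 0.05) of the value of 1 read, from which the totals were worked out. Values at the floor hold no read count, so whole tables of reads could not be recovered and no count model was run. The 4 entries for unassigned reads were left out. The sequence and position of Egr1 and 1 of the genes most like the members are not reported here.

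From these values log2(CPM + 1) was computed, and every gene that exceeded the floor in 5 or more mice (15138 genes) was fitted with limma 3.58.1 (R 4.3.3; 4 group means, variance trend, Benjamini-Hochberg adjustment over all genes tested). Exact permutation tests, permutations of mice within groups (100000) and correlations used scipy 1.17.1 and numpy 2.4.6, and figures matplotlib 3.10.9. All tests were two-sided. Scripts were tested on simulated data. Genes named outside the members were, by rule, the 2 largest changes each way per activity comparison, the 6 most like the members among listed genes and the 10 most like them among all. The members and lists were chosen with earlier results of these data known. Alternatives were other scaling, pseudocounts and filters, a replicate block, covariates for tissue markers, only the groups compared in the fit, no variance trend, and leaving out each mouse or the 5 lymphocyte-rich mice. The covariates and the permutations for the difference and the average of effects were chosen after seeing the data. Replicate numbers followed the order of titles within each group, where the clodronate groups skip title numbers. Same-numbered mice correlated over genes by −0.075 to 0.18 on average and by −0.39 to 0.52 as single pairs. Other pairs were not compared, so whether the numbers pair mice was not tested.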

Additional observations from a re-analysis of the deposited data

Results flagged for a closer look

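In 3 of the 40 combinations of 10 members and 4 groups, which share their mice, 1 mouse stood apart from the others of its group by Dixon's 95% criterion, where chance gives about 1 in 20, or 2 of 40. Fosb was 14.4 CPM in PBS wheel 5, against 3.14 CPM in the next mouse of that group. Atf3 was 10.5 CPM in PBS wheel 4, against 3.63 CPM in the next. Nr4a1 was 15.5 CPM in clodronate wheel 2, against 3.14 CPM in the next. That mouse also had the highest skeletal muscle score of its group, 9.80, and the part of muscle in its Nr4a1 value was not tested.

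The wheel effect on Fos differed between liposomes by −1.10 on the log2 scale (clodronate minus PBS, permutation p = 0.00721, unadjusted, limma adjusted p = 0.613). It was 0.79 with PBS and −0.31 with clodronate. The permutation p refers to no wheel effect under either liposome, not to equal effects, and these same values prompted the comparison.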

How the results depend on the processing

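By limma 0 members passed the adjusted p in each of the 6 comparisons and under each alternative run, with a lowest adjusted p of 0.315 as reported, 0.281 under other settings and 0.147 with 1 mouse left out. The fit with replicate number as a block also gave 0 in each comparison (lowest adjusted p 0.365) and changed no call. Same-numbered mice correlated over genes by −0.39 to 0.52, and whether the numbers pair mice was not tested. Selected differences of Fos, Fosb, Jun, Jund, Egr1 and Ier2 were followed through the settings, and none of them changed direction. The wheel difference of Dusp1 with clodronate was not among them. It changed direction without the lymphocyte-rich mice, while passing no adjusted p.

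The count of exact permutation tests with p under 0.05 was 2 of 40 as reported, 1 without the lymphocyte-rich mice, and 1 to 4 with 1 mouse left out. It was 4 without PBS wheel 3 or clodronate control 1, and 1 without clodronate wheel 2, 3 or 4. The count of member pairs past the adjusted p was 5 as reported, 3 without subtraction of group means, and 1 to 8 with 1 mouse left out. It was 8 without PBS control 4, 3 without PBS control 5, 2 without PBS wheel 5 and 1 without PBS wheel 3. The cause was not tested.

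Upper-quartile scaling changed the share of all genes with the lower mean from 57.4% to 45.5% for clodronate on average and from 65.4% to 50.7% in controls. With muscle, fat and lymphocyte scores as covariates, 1 member was higher and 9 lower on average with clodronate, against 6 and 4, and Jund in wheel-runners was 0.04. A minimum mean of 5 CPM left 7 members, without Fosb, Atf3 and Nr4a1. The floor of 1 CPM limits Fosb, Atf3 and Nr4a1 most.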
